A study of Mus musculus with 64 samples.

Results

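H19, Peg3 and Kcnq1ot1 are imprinted genes of mouse chromosome 7, and their probes were followed in the liver of 32 mice from 17 to 743 days of age. A probe was taken where the array's annotation gives it a single gene symbol and that symbol is a member. This found 14 of the 16896 probes, for 3 of 7151 genes with a probe of their own: 7 for H19, 3 for Peg3 and 4 for Kcnq1ot1. The 3 genes were chosen by their difference between young adults and juveniles as known from an earlier look at these values, so their change from juvenile to adult classes is given as a description, and nothing is read from a test of it.

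An imprinted gene is transcribed mainly from the copy inherited from a particular parent, and DNA methylation set in the germ line marks which parent a copy came from. H19 is a long noncoding RNA made from the maternal copy; it is abundant in fetal liver and is shut down in the weeks after birth, together with its neighbour Igf2, the fetal growth factor made from the paternal copy. Kcnq1ot1 is a long noncoding RNA transcribed from the paternal copy against the direction of Kcnq1, and it silences nearby genes, among them the cell cycle inhibitor Cdkn1c. Peg3 encodes a large zinc finger protein made from the paternal copy and shares its promoter region with Usp29, which is transcribed the other way.

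All mice were of the inbred strain C57BL/6 and ate regular feed without restriction; the labels name no genetic change and no other treatment. Within an inbred strain the parental copies carry the same sequence, so the values are the sum of both. The juvenile class held 4 males and 4 females of 17 to 44 days, and the young adult class 5 males and 4 females of 174 to 194 days. The middle-aged class held 3 males and 4 females of 479 to 499 days, and the old class 4 males and 4 females of 712 to 743 days. Each mouse was measured on a pair of nylon membranes, A and B, with 8448 cDNA probes each, and each array was deposited as z-scores, so that a level of 0 is the mean of its array and differences are in array standard deviations (array SD). Fold changes cannot be had from such values. The labels number the mice separately, so p-values measure the spread between mice.

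By the RefSeq annotation of GRCm38.p6, H19 is a lncRNA gene of 2617 bases at chr7:142575530-142578146. Igf2 lies 72.6 kb from it and Kcnq1ot1 635 kb from it. Kcnq1ot1 is a lncRNA gene of 83437 bases at chr7:143213111-143296547, inside Kcnq1, and Peg3 is a protein-coding gene at chr7:6703892-6730462. The array files give no coordinates for the probes, so the part of each transcript that a probe reads is unknown here. Probe sequences were not at hand either, so it could not be checked that each probe reads the gene it is annotated to.

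The promoters of Peg3 and Kcnq1ot1 are shown because germ-line methylation at these starts sets which parental copy is transcribed; methylation itself was not measured. The sequences, from RefSeq on GRCm38.p6, run from 250 bases before to 50 after the start of the gene, on the minus strand, at chr7:6730370-6730669 for Peg3 and chr7:143296498-143296797 for Kcnq1ot1. Capitals mark CG dinucleotides, the letters at which mammalian DNA is methylated.
Peg3: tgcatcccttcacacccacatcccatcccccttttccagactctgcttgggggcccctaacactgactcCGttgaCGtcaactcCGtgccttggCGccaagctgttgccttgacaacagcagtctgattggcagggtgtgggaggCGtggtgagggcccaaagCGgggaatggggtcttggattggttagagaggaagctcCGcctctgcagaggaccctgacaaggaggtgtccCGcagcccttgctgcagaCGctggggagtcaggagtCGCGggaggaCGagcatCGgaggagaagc
Kcnq1ot1: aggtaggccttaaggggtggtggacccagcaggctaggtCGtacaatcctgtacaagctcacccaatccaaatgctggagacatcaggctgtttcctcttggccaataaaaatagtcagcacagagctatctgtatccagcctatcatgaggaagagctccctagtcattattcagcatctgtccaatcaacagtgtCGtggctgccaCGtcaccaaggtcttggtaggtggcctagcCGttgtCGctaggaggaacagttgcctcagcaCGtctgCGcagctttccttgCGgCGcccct

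The Peg3 window held 13 CG and the Kcnq1ot1 window 9. Of 32851 promoters of the same length, 37.9% held at least 13 and 45.8% at least 9, with a median of 7. H19 itself is the host of a microRNA, mmu-miR-675, whose mature forms are shown, with the seed (bases 2 to 8) in capitals, because they are the known small products of the RNA. No probe of either membrane is annotated to Mir675, so these products were not measured.
mmu-miR-675-5p: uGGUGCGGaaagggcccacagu
mmu-miR-675-3p: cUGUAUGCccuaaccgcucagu

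Arrays of a membrane shared their pattern of levels, with a median r between arrays of 0.915 on A and 0.94 on B. The lowest r between arrays was 0.42 on A and 0.627 on B. Of 16 hepatocyte markers 5 were measured, and Alb, Apoa1 and Ttr lay at the 99.9, 99.3 and 95.7 percentile of membrane A, while Apob lay at 36.2. Male juvenile replicate 2 was the only mouse far out on the first principal component of both membranes, a component that held 37.8% of the variance on A and 39.5% on B. This mouse gave the highest or lowest value of 49.4% of all probes and of 6 of the 14 probes studied here, so juvenile values are given with and without it. Xist, made in females alone, read -0.864 ± 0.173 (SD, n = 12) in adult females and -0.76 ± 0.109 (n = 12) in adult males, so the labels of sex had no check in these values. In male old replicate 2 the title and the description give different mice; the title was used.

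The 7 H19 probes did not share a level. H19 probe 8789 was among the brightest of membrane B, at the 97.8 percentile on the mean of 32 mice and between 93.9 and 98.5 in each mouse. H19 probe 134, the only H19 probe of membrane A, lay at the 88 percentile of its membrane. The other 5 lay lower on membrane B, at the 8.59 (probe 12397), 19.9 (probe 11847), 37.4 (probe 15040), 44.5 (probe 10264) and 50.6 percentile (probe 15084). The 6 H19 probes of membrane B thus spanned 89.3 percentile points, and no other gene had 6 probes there. Which of them read H19 could not be checked, so the level of probe 8789 is not taken as the abundance of H19 RNA in liver.

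Peg3 showed the same kind of spread. Peg3 probe 15583 lay at the 94.1 percentile of membrane B (90.6 to 96.1 in single mice), and probes 15373 and 12385 lay at 26.1 and 16.1, a span of 78.1 points. Kcnq1ot1 lay below the middle on every probe: its probes 12647, 10430 and 15075 lay at 42.4, 39.6 and 11.8 of membrane B, a span of 30.6 points, and probe 399 lay at 20.9 of membrane A. For comparison, the 60 genes with 3 probes on membrane B had a median span of 45.2 points, with a range of 4.56 to 90.4. The order of the 3 genes by level therefore depends on which probe is read.

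**Figure D1:**
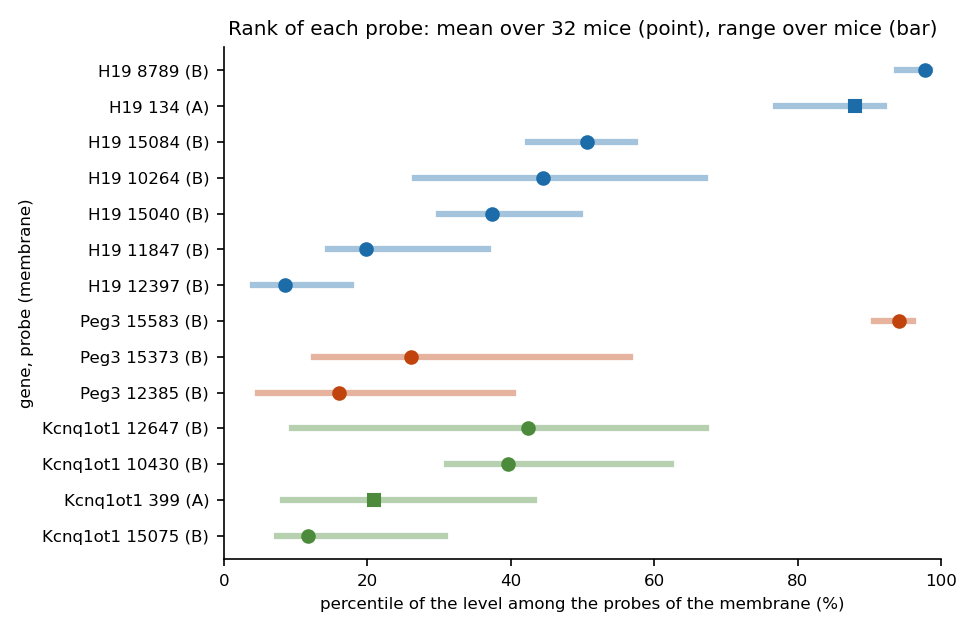
Percentile of each probe's level among the 8448 probes of its membrane. Points are means over 32 mice (squares membrane A, circles membrane B) and bars the range over single mice. H19 8789 and Peg3 15583 sit above 90 in every mouse, and the remaining probes of the same genes on membrane B lie near or below the middle.

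Spread between mice differed between probes of a gene as well. The residual SD of a probe, its spread among mice of the same sex and age class, was 0.092 array SD for Peg3 15583, at percentile 1.07 of membrane B, and 0.095 for H19 15084, at percentile 1.33. At the other end, Kcnq1ot1 12647 had 0.362 (percentile 89.1) and Peg3 12385 had 0.285 (percentile 77.3). The median over all probes was 0.276 on A and 0.206 on B.

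On every H19 probe the 4 age classes overlapped. The bright probe 8789 read 1.86 to 2.37 array SD in 8 juvenile mice (median 2.115) and 2.03 to 2.19 in 9 young adults (median 2.11). It read 1.97 to 2.18 in 7 middle-aged mice (median 2.16) and 1.45 to 2.20 in 8 old mice (median 2.025). The lowest value, 1.45, was that of female old replicate 2, and the highest, 2.37, that of male juvenile replicate 2; every class overlapped every other. In descending order the means were 2.12 ± 0.161 in juvenile, 2.12 ± 0.0772 in middle-aged, 2.11 ± 0.0604 in young adult and 1.97 ± 0.239 in old mice (SD), and neighbours in this order differed by less than the larger of their SDs. The adult classes differed from juvenile mice by -0.0576 ± 0.0648 (SE), and by -0.0276 ± 0.0675 without male juvenile replicate 2. In bulk liver, fewer cells that make an RNA and less RNA per cell cannot be told apart.

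H19 probe 134, on the other membrane, ran from 0.67 to 1.68 in juvenile mice (median 1.145), 0.78 to 1.23 in young adults (median 1.09), 0.85 to 1.32 in middle-aged mice (median 1.14) and 0.93 to 1.36 in old mice (median 1.19). Its juvenile range covered that of all adult classes, with female juvenile replicate 1 lowest and male juvenile replicate 2 highest of the 32 mice. The class means were 1.18 ± 0.138 in old, 1.15 ± 0.283 in juvenile, 1.11 ± 0.189 in middle-aged and 1.05 ± 0.166 in young adult mice (SD), again closer than their SDs. Its difference between adult and juvenile mice was -0.034 ± 0.0794 (SE) and turned to 0.0256 ± 0.077 without male juvenile replicate 2. The other 5 H19 probes differed between adult and juvenile mice by -0.0991 (probe 10264) to 0.0239 (probe 11847).

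Peg3, read by its bright probe 15583, was 1.56 to 1.72 in juvenile mice (median 1.62) and 1.40 to 1.67 in young adults (median 1.56). It was 1.5 to 1.69 in middle-aged mice (median 1.59) and 1.43 to 1.81 in old mice (median 1.61). The ranges overlapped between all classes, and the young adult mean was the lowest, at 1.54 ± 0.0768, below 1.61 ± 0.0692 in middle-aged, 1.62 ± 0.127 in old and 1.63 ± 0.0649 in juvenile mice (SD). Young adults thus differed from juvenile mice by -0.0978 ± 0.0543 (SE). All adults differed from juvenile mice by -0.0447 ± 0.0456, and by -0.0317 ± 0.0484 without male juvenile replicate 2.

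The dimmer Peg3 probes had other orders of the class means. Peg3 15373 read -1.01 to -0.09 in juvenile mice (median -0.495), -0.82 to -0.40 in young adults (median -0.53), -0.85 to -0.45 in middle-aged mice (median -0.61) and -1.02 to -0.30 in old mice (median -0.735). Its class means were lower with each later class, from -0.51 ± 0.312 through -0.557 ± 0.157 and -0.621 ± 0.135 to -0.728 ± 0.235 (SD), in steps smaller than those SDs and with overlapping ranges. The value of -1.02 was that of female old replicate 2, which gave the highest or lowest value of 27.6% of all probes. Old and middle-aged mice differed by -0.107 ± 0.107 (SE), and by 0.0298 ± 0.0514 with the first 2 principal components as covariates, so the order of the classes was not kept. Adults differed from juvenile mice by -0.126 ± 0.0844 (SE), the lowest value of the 14 probes, and by -0.089 ± 0.0883 without male juvenile replicate 2. Peg3 12385 had its lowest mean in young adults, -1.04 ± 0.27, and its highest in old mice, -0.743 ± 0.249; juvenile mice had -0.9 ± 0.254 and middle-aged mice -0.807 ± 0.3 (SD).

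The Kcnq1ot1 probes differed in which class varied most. The SD of probe 399 was lowest in juvenile mice, at 0.184, and that of probe 10430 highest in old mice, at 0.175, while probe 12647 varied most among juvenile mice. Probe 12647 ran from -1.05 in male juvenile replicate 2 to 0.42 in female juvenile replicate 2 (median -0.26), which are the lowest and the highest value of all 32 mice. Young adults ran from -0.72 to 0.24 (median -0.35), middle-aged mice from -0.41 to 0.16 (median -0.27) and old mice from -0.72 to 0.23 (median -0.135). All classes overlapped, and the class means of -0.331 ± 0.502, -0.248 ± 0.321, -0.161 ± 0.25 and -0.166 ± 0.306 (SD) differed by less than their SDs. The difference between adult and juvenile mice was 0.137 ± 0.141 (SE), the highest of the 14 probes, and 0.054 ± 0.144 without male juvenile replicate 2. With the first 2 principal components as covariates this difference was -0.0338 ± 0.0524, on the other side of 0. The other Kcnq1ot1 probes differed by -0.0658 ± 0.0716 (probe 15075), -0.056 ± 0.0933 (probe 399) and 0.00761 ± 0.0567 (probe 10430). Without male juvenile replicate 2 these were 0.00294 ± 0.066, -0.0148 ± 0.0963 and 0.0589 ± 0.0533.

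**Figure D2:**
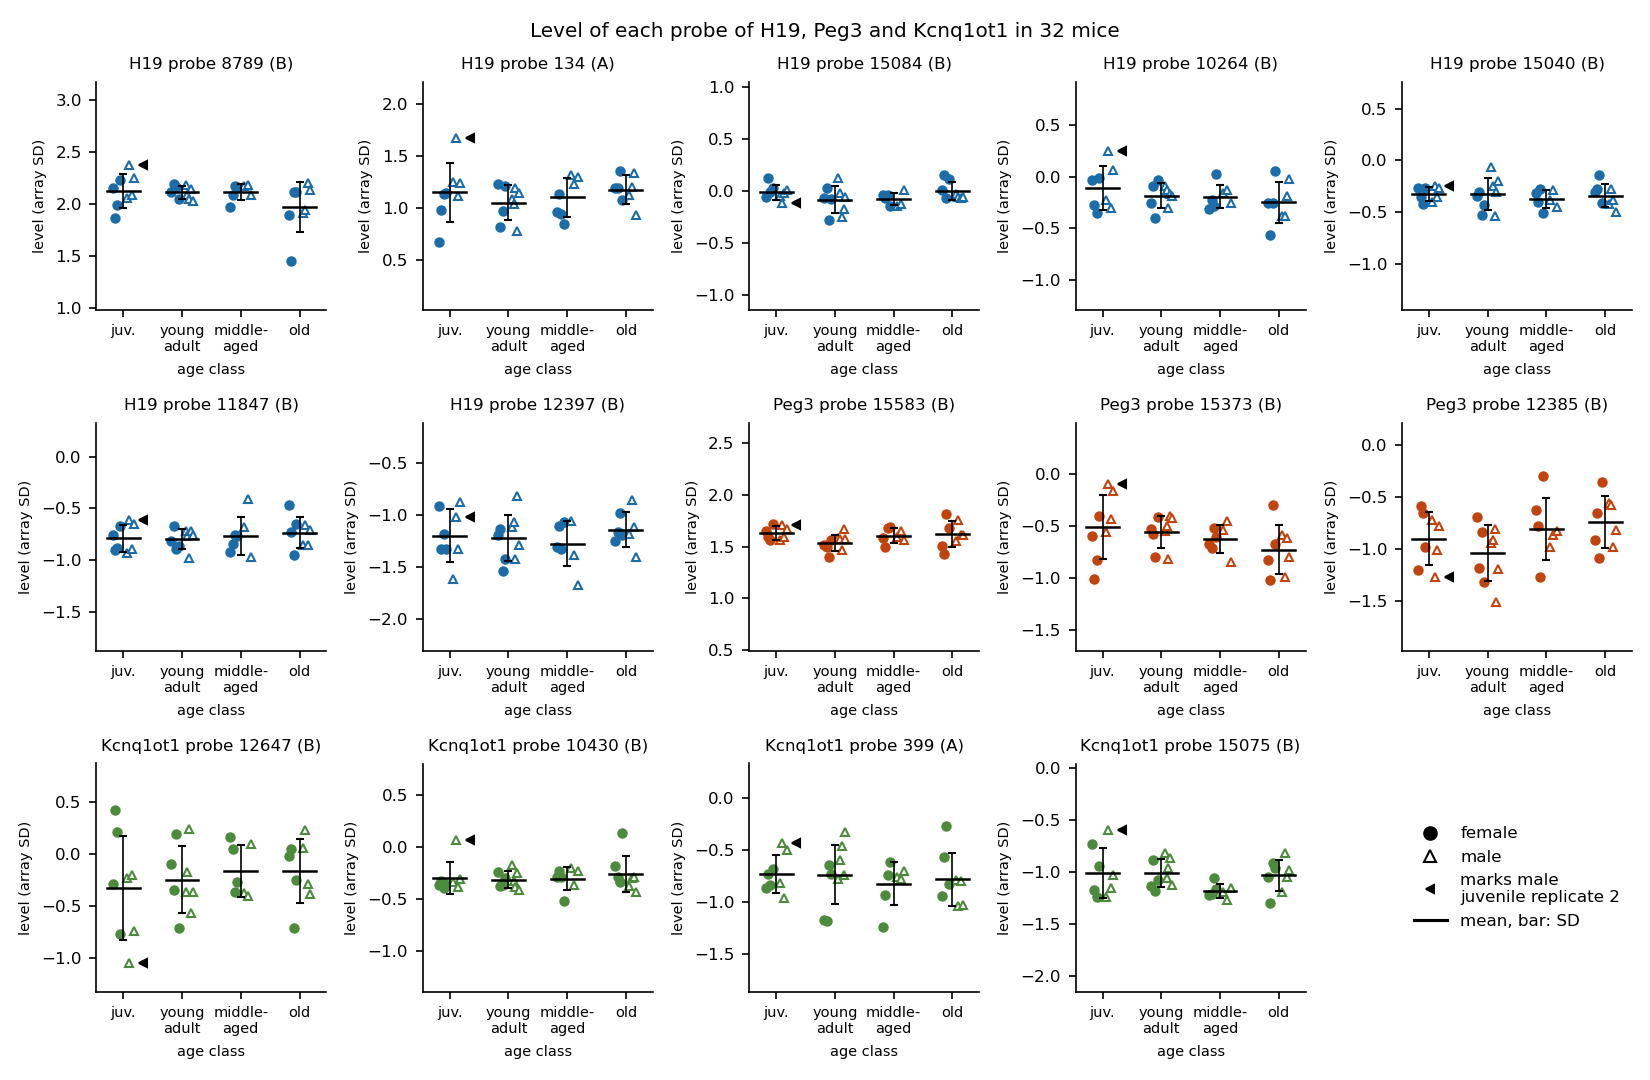
Level in array SD of each of the 14 probes in the 32 mice by age class (juv., juvenile; A or B, the membrane). Filled circles are females, open triangles males, lines the class mean and bars the SD, each panel spans the same number of array SD, and black arrowheads mark male juvenile replicate 2. In every panel the 4 classes overlap, and Kcnq1ot1 12647 has the widest juvenile spread, from -1.05 to 0.42.

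Over the 14 probes, 10 were below 0 and 4 above in adult minus juvenile mice, with a median difference of -0.0393 against -0.00461 for all probes. Without male juvenile replicate 2, 8 were below 0 and 6 above, with a median of -0.0152. Young adults were below juvenile mice in 13 of 14 probes, and in 8 of 14 without that mouse. Middle-aged mice were below in 11 and old mice in 7. Of all probes, 48.5% were above 0 for all adults against juvenile mice. The shares were 51.2%, 51.4% and 48.7% for young adult, middle-aged and old against juvenile mice. These comparisons share the juvenile mice. limma called 0% of the 16896 probes in each of the 4 comparisons with juvenile mice. At an unadjusted p under 0.05 it found 460 probes (2.72%) for all adults, 277 (1.64%) for young adults, 332 (1.96%) for middle-aged and 1746 (10.3%) for old mice. Nothing was read from 0 of 14 called. For all 14 probes the juvenile range overlapped that of each adult class; over all probes, the share without overlap was 0% for young adult, 0.00592% for middle-aged and 0% for old against juvenile mice.

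The ages within the juvenile class straddle weaning, so the 3 mice of 17 to 21 days were set against the 5 of 33 to 44 days, with sex in the model. limma called 0% of the 16896 probes here, 803 (4.75%) had an unadjusted p under 0.05, and of the 14 probes 0 were called and 1 was under 0.05. That probe was H19 134. It read 0.67, 0.98 and 1.12 in the younger juveniles and 1.14, 1.15, 1.24, 1.25 and 1.68 in the older, so on this probe the younger and older juveniles did not overlap and the older read higher. It was 1 of 14 without overlap, against 348 (2.06%) of all 16896 probes. It was singled out after its values were seen. The fitted difference was 0.338 ± 0.14 (SE, 95% interval 0.0531 to 0.623, limma adjusted p = 0.687), 0.256 ± 0.135 without male juvenile replicate 2, and the lowest value with a mouse left out was 0.232 ± 0.156, without female juvenile replicate 1. The other 6 H19 probes differed by -0.0346 to 0.135 in the same comparison. Of the 14 probes 9 were above 0 and 5 below, and Kcnq1ot1 12647 had the lowest value, -0.472 ± 0.243 (adjusted p = 0.687), which became -0.091 ± 0.0921 with the first 2 principal components as covariates.

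Among adults no probe of the 3 genes passed the test. Between old and young adult mice limma called 0% of the 16896 probes, with 1042 (6.17%) at an unadjusted p under 0.05, and 0 of 14 probes here, with 1 under 0.05. That probe was Peg3 12385, which read -1.51 to -0.69 in young adults (median -0.94) and -1.09 to -0.35 in old mice (median -0.735); these ranges overlapped. Its difference was 0.297 ± 0.133 (SE, 95% interval 0.0245 to 0.57, limma adjusted p = 0.685), the largest of the 14, and 0.153 with the first 2 principal components as covariates. The other Peg3 probes stood on either side of 0, at -0.169 ± 0.1 for 15373 and 0.0865 ± 0.0543 for 15583. With the 2 components as covariates they were at -0.0207 ± 0.0486 and 0.13 ± 0.0415. Without female old replicate 3 Peg3 15583 was at 0.0527 ± 0.0521.

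H19 8789 differed between old and young adult mice by -0.144 ± 0.0771 (limma adjusted p = 0.685), with a 95% interval of -0.302 to 0.0137, while H19 134 differed by 0.124 ± 0.0945. Without female old replicate 2, the mouse with the lowest value, the difference of H19 8789 was -0.0709 ± 0.064, and with the 2 components as covariates it was -0.0557 ± 0.0531. Kcnq1ot1 12647 differed by 0.0813 ± 0.167, and by -0.175 ± 0.0637 with the 2 components as covariates (limma adjusted p = 0.866). Of the 14 probes 8 were above 0 and 6 below, with a median of 0.0602 against -0.0015 for all probes, and the intervals reached from -0.374 to 0.57. A shift of the size of 1 array SD in adult life lay outside the interval of every one of these probes. Middle-aged and young adult mice differed by -0.167 to 0.222, and old and middle-aged mice by -0.152 to 0.15. In both of these comparisons limma called 0% of all probes and 0 of 14, with 86 (0.509%) and 1012 (5.99%) of all probes and 0 of these under an unadjusted p of 0.05. The ranges of these adult classes overlapped for all 14 probes. Over all probes, 0.00592% did not overlap between old and young adult mice, 0% between middle-aged and young adult mice and 0.0178% between old and middle-aged mice. Between old and middle-aged mice Kcnq1ot1 12647 differed by 0.00417 ± 0.179, and by -0.219 ± 0.0673 with the 2 components as covariates (limma adjusted p = 0.612).

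Between adult females and males the probes differed by -0.0828 ± 0.0801 (H19 134) to 0.0668 ± 0.113 (Peg3 12385), with 11 below 0 and 3 above. Of all probes, 49.4% were above 0. The 14 probes share arrays, and 6 of them changed sign under some other processing or with a mouse left out. limma called 0% of the 16896 probes and 0 of these 14, with 199 (1.18%) of all probes and 0 of these at an unadjusted p under 0.05. The smallest unadjusted p of the 14 was 0.31 in the limma fit, and the 95% intervals lay within -0.292 to 0.298. With Xist not separating the sexes, this comparison had no working control.

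Among juvenile mice Peg3 15373 and H19 134 had the smallest p of the 14 probes between the sexes, while Peg3 15583 differed by -0.0025 ± 0.0788 and Kcnq1ot1 15075 by -0.0175 ± 0.124. Peg3 15373 read -1.01, -0.83, -0.60 and -0.40 in the 4 juvenile females and -0.56, -0.43, -0.16 and -0.09 in the 4 juvenile males. The sexes overlapped by female juvenile replicate 4, at -0.40, which lay above 2 of the males. The difference was -0.4 ± 0.146 (SE, limma adjusted p = 0.422), and -0.327 ± 0.155 without male juvenile replicate 2. In adults the same probe differed by -0.00372 ± 0.0851, and the difference between these, the interaction of age and sex, was 0.396 ± 0.169 (limma adjusted p = 0.687).

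H19 134 showed a like pattern: juvenile females read 0.67, 0.98, 1.14 and 1.15, and juvenile males 1.12, 1.24, 1.25 and 1.68. The sexes overlapped, since male juvenile replicate 3, at 1.12, lay below 2 of the females. The difference of -0.338 ± 0.137 (limma adjusted p = 0.422) was -0.218 ± 0.135 without male juvenile replicate 2. The younger juveniles were 2 females and 1 male, so sex and age are partly mixed in this class. For juvenile sex limma called 0% of the 16896 probes and 0 of 14, with 1730 (10.2%) of all probes and 2 of these under an unadjusted p of 0.05. For the interaction it called 0% and 0 of 14, with 757 (4.48%) of all probes and 1 of these under 0.05.

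**Figure D3:**
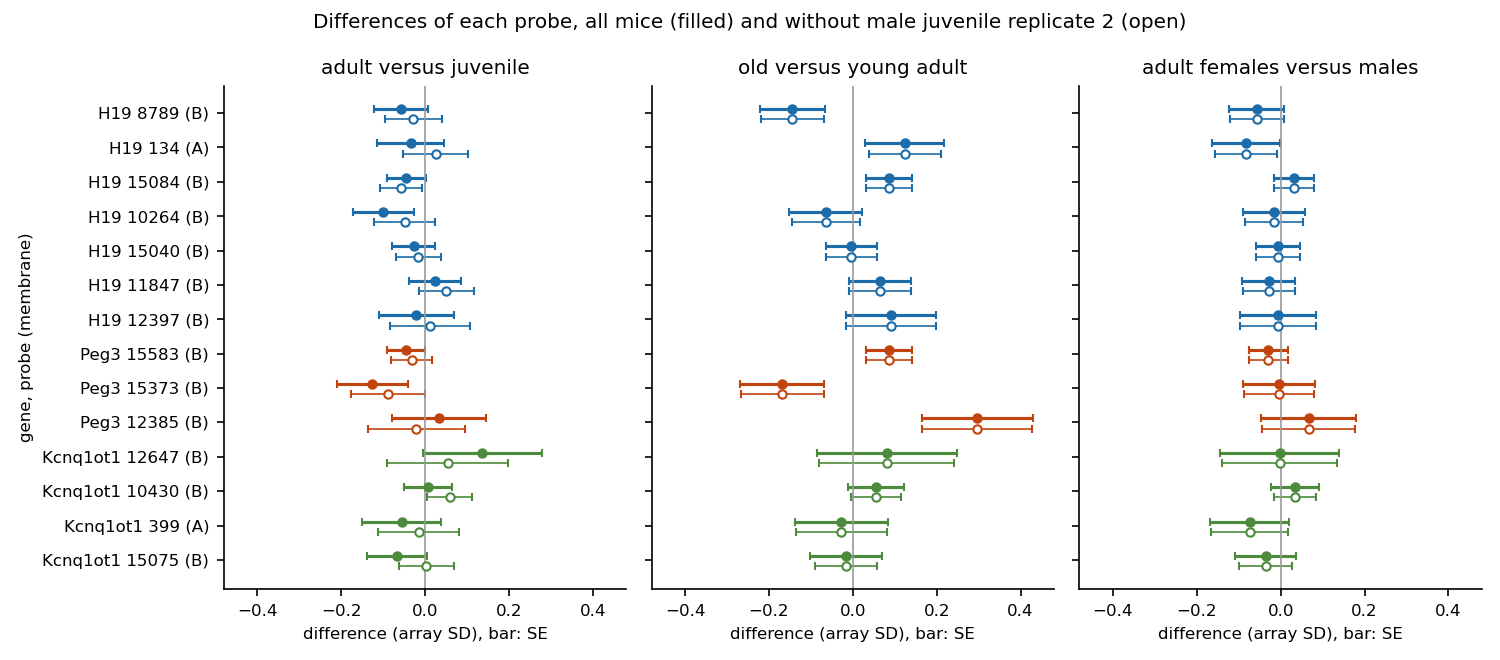
Difference in array SD of each probe (bars, SE) between adult and juvenile, old and young adult, and adult female and male mice, for all mice (filled) and without male juvenile replicate 2 (open). Values lie close to 0, between -0.126 and 0.137 in the first panel, and Peg3 12385 at 0.297 is the farthest from 0 in the second. H19 134, H19 12397, Kcnq1ot1 15075 and Peg3 12385 change side in the first panel when that mouse is left out.

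Agreement between probes of a gene was measured as the Pearson r, over the 32 mice, of deviations from the mean of each sex and age class. The probes share arrays, so these values describe the arrays as well as the genes, and no p is given. Over the 21 pairs of H19 probes the median r was 0.134, with a range of -0.271 to 0.738, and 15 pairs were above 0; Spearman's rho had a median of 0.216. Over the 3453 pairs of probes of all genes with several probes the median r was 0.0819, and over all pairs of probes it was -0.0041 on A and -0.00125 on B. Pairs of probes of different members had a median r of 0.158 over 61 pairs, above that of the H19 pairs, and 37 were above 0.

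The H19 pair with the highest r was 8789 with 10264, at 0.738, and 0.361 once the first 2 principal components were removed. H19 134, on membrane A, had r of -0.151 to 0.134 with the 6 H19 probes of membrane B, although both membranes carried RNA of the same mice. Probes 15040 and 15084 lie 44 positions apart in the order of the probe numbers and had r = 0.413. At such distances of 22 to 88 positions, in steps of 22, the median over 126 pairs of any gene was 0.662, and over the other 3327 pairs it was 0.0628. With arrays centred on the median and scaled by the median absolute deviation, the H19 median was 0.466 and all 21 pairs were above 0. Pairs of different members had a higher median under this scaling too, 0.359 in place of 0.158, with 41 of 61 above 0. With the first 2 principal components removed, the H19 median was -0.0472, with 10 pairs above 0 and 11 below.

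Peg3 probes disagreed in sign. Peg3 15373 and 15583 had r = 0.683, whereas Peg3 12385 had r = -0.515 with 15373 and -0.325 with 15583. Under quantile normalisation the first of these was -0.285, and with the first 2 components removed all 3 pairs were positive, at 0.388, 0.258 and 0.125. Kcnq1ot1 had a median r of -0.173 over 6 pairs, from -0.549 between 12647 and 15075 to 0.483 between 10430 and 15075. The former was -0.00493 with the components removed.

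**Figure D4:**
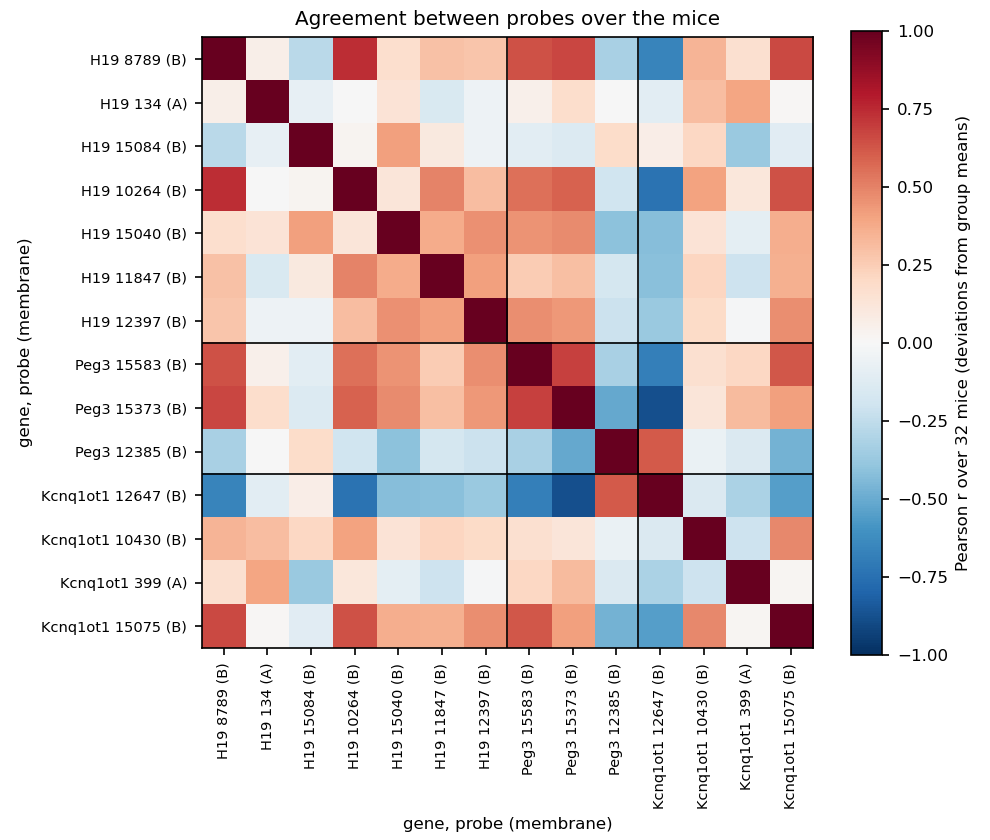
Pearson r over 32 mice between the 14 probes, ordered by gene (lines part H19, Peg3 and Kcnq1ot1) and by level within a gene. The strongest value joins probes of different genes, Kcnq1ot1 12647 and Peg3 15373 at -0.877, and the 21 H19 pairs run from -0.271 to 0.738.

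The strongest relation between any pair of these probes was between different genes, at r = -0.877 for Kcnq1ot1 12647 and Peg3 15373. Both followed the first principal component of all probes of membrane B, with r = 0.889 for Kcnq1ot1 12647 and -0.919 for Peg3 15373 (n = 32). H19 8789 had r = -0.752 with it, H19 10264 -0.731 and Peg3 12385 0.649. Peg3 15583, the steadiest probe, had -0.425, and H19 15084 had 0.196. With the first 2 components removed, the r between Kcnq1ot1 12647 and Peg3 15373 was -0.299. With the first 2 components as covariates, the juvenile sex difference of Peg3 15373 went from -0.4 to -0.158 and that of Kcnq1ot1 12647 from 0.448 to 0.0338.

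**Figure D5:**
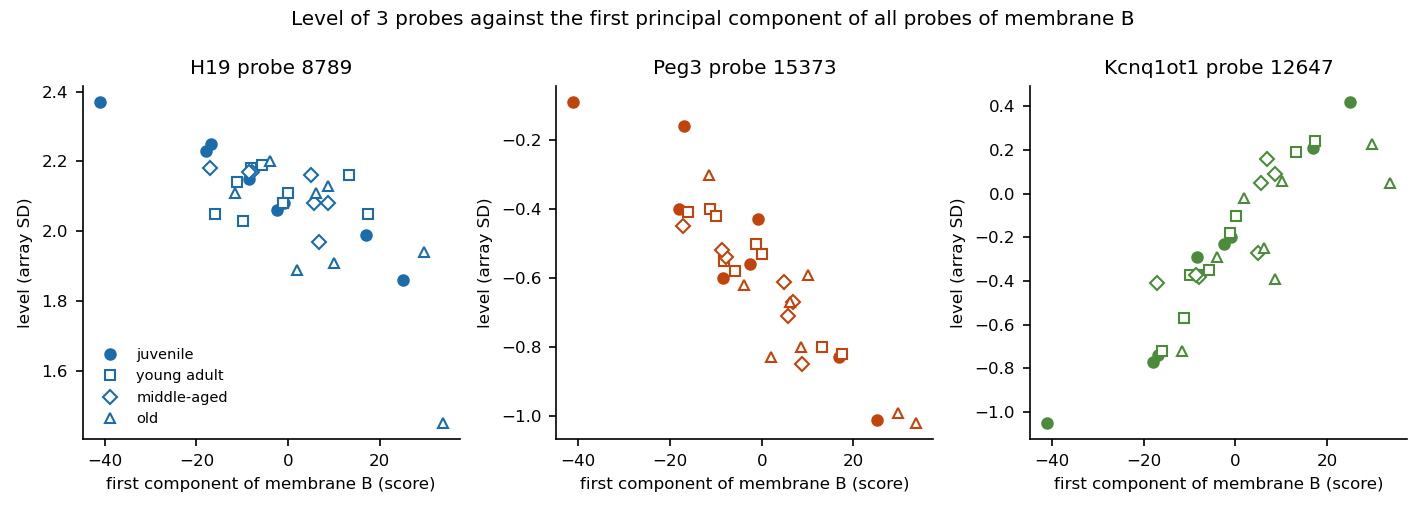
Level in array SD of H19 8789, Peg3 15373 and Kcnq1ot1 12647 against the first principal component of all probes of membrane B, for 32 mice by age class. Peg3 15373 is lower and Kcnq1ot1 12647 higher toward the right of the component (r = -0.919 and 0.889, n = 32), mice of all age classes lie along it, and male juvenile replicate 2 is at its left end, at -41.1.

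Probes near a member in the order of the probe numbers moved with it too. Probes 22 positions before or after a member probe had a median r with it of 0.322 over 28 pairs, from -0.49 to 0.882, and 24 pairs were above 0. The highest were Mtfr1l with Peg3 15373, at 0.882, and Arsa and Dhx38 with H19 10264, at 0.875 and 0.84. These exceed every r between H19 probes. The same was not computed over all probes 22 positions apart, so it is unknown whether the members differ from other probes in this.

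The probes most like each gene's brightest probe were named by r of the levels over the 32 mice. For H19 8789 they were Akap11 (0.944), which anchors protein kinase A, the transcription factor subunit Taf12 (0.932) and the centromere protein gene Cenpb (0.917), each itself at or above the 96.6 percentile. Peg3 15583 was most like Snn (0.741), 3830417A13Rik (0.726) and the choline transporter gene Slc44a1 (0.713); Snn lies 550 positions from it, a multiple of 22, and Slc44a1 22. Kcnq1ot1 12647 was most like Rbbp6 (0.96), which binds the retinoblastoma protein, the exchange factor gene Kalrn (0.956) and the phosphatase gene Dusp11 (0.953). None of these 9 is an imprinted gene of the lists used here.

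The genes listed for the domains of the members gave values of the same size. These lists were drawn by place, and not every gene in them need be imprinted. In the H19 and Igf2 domain 5 of 9 listed genes were measured, and the mean of each was below 0 in adult minus juvenile mice, H19 among them, with 0 called. The probes of Igf2 read -1.11 ± 0.187 in juvenile mice against -1.15 ± 0.285, -1.18 ± 0.194 and -1.17 ± 0.257 in the adult classes (probe 6628, membrane A), and 0.744 ± 0.231 against 0.67 ± 0.205, 0.633 ± 0.0678 and 0.635 ± 0.178 (probe 10702, membrane B). Igf2 thus differed by -0.0456 ± 0.0986 and -0.0982 ± 0.0747 (SE), less than the SD of the juvenile mice on either probe. Mrpl23, a mitochondrial ribosomal protein gene, differed by -0.17 ± 0.264 and -0.0128 ± 0.0726, the leukocyte gene Lsp1 by -0.0516 ± 0.0395 and the tyrosine hydroxylase gene Th by -0.0533 ± 0.086.

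In the Kcnq1ot1 domain 10 of 16 listed genes were measured, with 4 above 0, 6 below and 0 called. Cdkn1c, the growth inhibitor silenced by Kcnq1ot1, had a higher mean in each later class, from 0.636 ± 0.532 in juvenile through 0.724 ± 0.265 and 0.773 ± 0.255 to 1.02 ± 0.347 in old mice (SD), by 0.201 ± 0.142 (SE) for adults against juvenile mice and 0.29 ± 0.169 for old against young adult mice (limma adjusted p = 0.887 and 0.685). The host gene Kcnq1, a potassium channel, was bright, at the 95.6 percentile, and differed by -0.0654 ± 0.0837 between adult and juvenile mice. The histone chaperone gene Nap1l4, at the 97.5 percentile, differed by -0.0179 ± 0.0677, and the placental growth regulator Phlda2 by 0.0524 ± 0.11. Tssc4 was at -0.0686 ± 0.0878, Dhcr7, of cholesterol synthesis, at -0.0632 ± 0.0926, Tspan32 at -0.0211 ± 0.0955, Tnfrsf23 at 0.0122 ± 0.0617 and the tetraspanin gene Cd81 at -0.00403 ± 0.093. In the Peg3 domain 2 of 7 listed genes were measured, and Usp29 differed by -0.143 ± 0.266.

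Wider lists did not set the members apart. The lists of the 3 domains and of other imprinted genes together held 95 genes, of which 42 were measured. Of these, 15 were above and 27 below 0 in adult minus juvenile mice, with a median of -0.0387. Leaving out the 3 members, 14 were above and 25 below with a median of -0.0404, against -0.00461 over all probes, and 0 were called. Of all probes, 48.5% were above 0. The list counts include male juvenile replicate 2 and were not made without it, so no general fall of imprinted genes is read from them. The smallest p among imprinted genes outside the 3 domains were those of Dio3, which inactivates thyroid hormone, at -0.154 ± 0.068, Cobl at 0.165 ± 0.0799 and a probe of Copg2 at 0.183 ± 0.0972 (each limma adjusted p = 0.887). Old against young adult mice had 22 of the 42 above 0 and 20 below.

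Of 40 listed regulators of imprints and silencing 31 were measured, 17 above and 14 below 0, with 0 called. Those with the smallest p were Tet3, a methylcytosine oxidase, at -0.288 ± 0.107 on a probe and 0.167 ± 0.117 on another, the heterochromatin protein gene Cbx1 at -0.501 ± 0.253, and Trim28, the KRAB corepressor, at 0.139 ± 0.071 on the probe with the smallest p. Of 24 listed genes repressed in liver after birth and their regulators 12 were measured, H19 and Igf2 among them, 4 above and 8 below 0, with 0 called. A probe of the fetal growth regulator Hmga2 was at 0.171 ± 0.0593, higher in adults (limma adjusted p = 0.887), and the other 2 Hmga2 probes were at 0.0902 ± 0.103 and -0.0105 ± 0.0599. Cd24a probes were at -0.269 ± 0.209 and -0.0106 ± 0.0929. In the insulin-like growth factor axis 9 of 18 genes were measured, 6 above and 3 below 0, with 0 called; besides Igf2 the smallest p were those of the binding protein gene Igfbp4, at 0.0994 ± 0.0806, and the insulin receptor substrate Irs1, at -0.145 ± 0.118.

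Markers of other cells that liver can hold were read beside these values in the comparison of adult with juvenile mice. Of 13 erythroid and blood genes 8 were measured, 4 above and 4 below 0, and of 11 stellate cell and fibroblast genes 7, 3 above and 4 below. Of 11 macrophage genes 3 were measured, 2 above and 1 below, of 9 cholangiocyte genes 5, 4 above and 1 below, and of 9 endothelial genes 3, 1 above and 2 below. The hepatocyte list had 3 of 5 above 0, and the skeletal muscle and exocrine pancreas lists had 1 measured gene each, below and above 0. In all 8 lists 0 probes were called, and their part in the values of H19, Peg3 and Kcnq1ot1 was not tested.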

How the data were processed

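Liver RNA of 32 mice was reverse transcribed with 33P-dCTP, per the labels' protocols, and each mouse has an array on membrane mouse17K-A and another on mouse17K-B. The authors deposited a score for each probe and array; its mean of 0 and SD of 1 in every array show it to be a z-score. How images were read, background treated and values transformed before scaling is not given in the sources used here. Values were planned to be tested as log2 if linear; being z-scores, they were tested as deposited. The number of arrays limits the precision; no signal over background was given.

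Mice were grouped by sex and age in the labels, and their arrays joined through the mouse number in the title. Replicate numbers were given in accession order, so they pair no mice. Male old replicate 2 was placed by its title, age and sex. Probes were named where the platform's annotation gives 1 symbol (9663 of 16896 probes, 9641 matched by gene number to RefSeq of GRCm38.p6; 436 had several symbols and 6797 none). All sample columns were used.

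Each membrane was fitted with limma 3.58.1 (lmFit, eBayes, two-sided) in R 4.3.3 with 8 group means of sex and age class. The comparison within juvenile mice used 5 age classes plus sex. For each of 11 comparisons, Benjamini-Hochberg adjustment ran over all 16896 probes together, with a threshold of 0.05. The script was tested on simulated data. Members and lists were chosen with earlier results of these data known. Every member probe is described; of the lists, every measured gene of the domains of the members is named, and elsewhere the 3 genes with the smallest p where none was called, besides the 3 probes most like each member's brightest.

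Alternatives were quantile normalisation, scaling by median and median absolute deviation, eBayes with trend and robust, arrayWeights (statmod 1.5.0), adjustment within a membrane, the 5 sets of title numbers as a block, the brighter probes alone, the first 2 principal components as covariates, subtraction of the deviations of probes 22 to 88 positions away, juveniles of either age range left out, and each mouse left out. Leaving out the mouse far out on the first component was added as an alternative after seeing the data. Plots were drawn with matplotlib 3.10.9.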

Additional observations from a re-analysis of the deposited data

Results flagged for a closer look

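Of 98 groups of 4 to 10 mice examined, a mouse stood far from the rest in 2, where chance would flag about 5% of groups. H19 probe 11847 read -0.98 in male young adult replicate 3, and -0.77 to -0.72 in the other 4 males of that class. Kcnq1ot1 probe 10430 read 0.07 in male juvenile replicate 2, and -0.38 to -0.31 in the other 3 juvenile males; that mouse also lay farthest out on the first principal component of both membranes.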

How the results depend on the processing

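In 4 comparisons the count of member probes called went from 0 to more. Subtracting the deviations of probes 22 to 88 positions away leaves the group means as they were and narrows the spread. A shift that neighbouring probes share thus stays in a group difference but is taken out of its error. This subtraction therefore gives adjusted p that can be too small, and nothing is read from its calls. It called 1 probe for old against young adult mice (Peg3 15373, limma adjusted p = 0.00873), 1 for old against juvenile mice (the same probe; nothing is read from this, since the genes were chosen on juvenile mice), 2 between juvenile females and males (Peg3 15373, adjusted p = 0.000124, and H19 134, adjusted p = 0.0423) and 1 for the interaction of age and sex (Peg3 15373, adjusted p = 0.00121). With the first 2 components as covariates Peg3 15373 was instead at -0.0207 in the first of these, -0.0273 in the second, -0.158 between juvenile sexes and 0.172 in the interaction, with 0 called. Subtraction called 1096, 2093, 2217 and 833 of all 16896 probes. With arrayWeights 1 probe passed between juvenile females and males (Peg3 15373, adjusted p = 0.0467), among 949 of all probes. Elsewhere 0 were called, also without any single mouse. The adjusted p of the smallest member ranged over the alternatives from 0.00873 to 0.964 for old against young adult mice and from 0.000124 to 0.999 for juvenile sex. Both lower ends came from the subtraction. The median r of H19 pairs moved to 0.466 with scaling by the median absolute deviation, and that of pairs of different members moved from 0.158 to 0.359. The cause was not tested. Signs were less stable than calls: 3 of 14 probes (H19 15084, Peg3 15373 and Peg3 15583) kept the sign of adult minus juvenile mice in every alternative, 8 for old against young adult mice and 8 for adult sex. Leaving out the dimmer probes kept 4 of the 14. The labels give no replicate numbers that groups share; with the 5 sets of title numbers as a block, 0 of 14 probes were called in each comparison.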
